A study of Homo sapiens with 16 samples.

Results

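The D-type cyclins CCND1, CCND2 and CCND3, their partner kinases CDK4 and CDK6, and the CDK inhibitors CDKN1A, CDKN1B, CDKN2C and CDKN2D are described here across 4 clones of MDA-MB-231, a human triple-negative breast cancer cell line. They are 9 of the 14857 genes in the deposited table, and all 9 were found there by symbol. The genes were chosen with their levels in TTP and EV clones known, so the differences between those arms are descriptions, with no p-value and no support drawn from how many of the genes pass a threshold. P-values are given for the genes only between clones of the same arm, and for other genes of the pathway.

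All 4 clones carried the tet-off system, in which doxycycline shuts off the introduced gene. Clones EV_A and EV_B had in addition an empty vector (EV), and clones TTP_E11 and TTP_H3 a plasmid for tristetraprolin (TTP), the product of ZFP36. Every clone had 4 libraries labelled as biological replicates, which makes 16, from cells grown with the selection drugs G418 and hygromycin B. Doxycycline at 2 µg/mL is stated for the maintenance of TTP cells alone, and drugs were washed out for at least 24 h before experiments. Each group is 1 clone, and TTP, clone and doxycycline history cannot be told apart. An adjusted p or a standard error (SE) of a difference here is set against the variation among replicates within a clone, not among clones.

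D-type cyclins are the regulatory subunits that activate CDK4 and CDK6 in the G1 phase of the cell cycle. The active kinases phosphorylate the retinoblastoma protein, which frees E2F transcription factors and lets cells enter S phase. INK4 inhibitors, among them p18 (CDKN2C) and p19 (CDKN2D), bind CDK4 and CDK6 and keep cyclin D away. The CIP/KIP inhibitors p21 (CDKN1A) and p27 (CDKN1B) bind cyclin-CDK complexes. TTP is a zinc finger protein that binds AU-rich elements in 3′ UTRs and brings the mRNA to deadenylation and decay, and CCND1 has been described as one of its targets.

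The groups followed the library names, because the titles of 7 of the 8 libraries named TTP say EV. ZFP36 stood at 226.5 to 282.2 normalized counts in EV_A, 213.5 to 234.0 in EV_B, 10160 to 10941 in TTP_E11 and 13337 to 15041 in TTP_H3, so the libraries named TTP were the ones with high ZFP36. A normalized count is the number of reads on a gene divided by a size factor of the library. Between 14380767 and 22066098 reads per library lay on the listed genes. All 5 markers of basal or mesenchymal breast cells were listed (summed level 105122 to 108494 in EV and 77862 to 83830 in TTP libraries), and ESR1, PGR, CDH1, PTPRC and CD3E were not among the listed genes. ERBB2, EPCAM and GATA3, other markers of receptors and luminal cells, were listed, with a summed level of 2483 to 2863 in EV and 2850 to 3407 in TTP libraries. The level of the immune marker CD14 was 11.4 to 28.6 in EV and 9.98 to 22.6 in TTP libraries. Replicate 4 of EV_B and replicate 3 of TTP_H3 correlated least with the other libraries of their clone, with mean r of 0.994 and 0.991 across genes.

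Because TTP binds AU-rich RNA, the 3′ UTR of 1 GENCODE 29 transcript per gene (GRCh38) was searched on the transcript's own strand for ATTTA, for TATTTAT and for TTATTTATT, each of which lies inside the next. The heptamer TATTTAT was in 5 of the 9 genes, namely CCND1, CCND2, CDK6, CDKN1B and CDKN2D. It was in 32.8% of the 12465 listed genes with an annotated 3′ UTR. Length was not accounted for, and the 3′ UTRs of CDK6, CCND2 and CCND1 were longer than those of 99.2%, 94.3% and 83.4% of genes. For each of the 5 genes 1 site is shown, since these genes lie on both sides of the comparison and among the uncalled, with 7 bases on each side, 5′ to 3′ on the strand of the gene, with the heptamer in capitals.
CCND1 (chr11:69652698-69652718, plus strand): aaaagtaTATTTATtgcagag
CCND2 (chr12:4304496-4304516, plus strand): aagaggaTATTTATtacttcc
CDKN2D (chr19:10566527-10566547, minus strand): tggattcTATTTATtatgctt
CDKN1B (chr12:12721537-12721557, plus strand): taattgcTATTTATttttaca
CDK6 (chr7:92607656-92607676, minus strand): tgtatgtTATTTATttctgaa

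Neither the heptamer of CCND1 nor that of CCND2 lies within TTATTTATT. That nonamer, found in 8.57% of genes, was present among the 9 genes only at the printed CDK6 site. The 3′ UTR of CCND1 was 3192 bases long with 7 ATTTA pentamers, and that of CCND2 5341 bases with 8. CDK6 had the longest 3′ UTR of the 9, with 10219 bases, 26 pentamers and 3 heptamers. Per length the pentamer was densest in CDKN1B, at 5.21 per kb, and CDKN2D, at 5.03 per kb, against a median of 1.61 over all genes. CDK4 had no pentamer in 798 bases. CDKN1A, CDKN2C and CCND3 had 3, 1 and 2 pentamers and no heptamer. A match describes these letters in 1 annotated transcript and is no evidence of binding.

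CCND1 and CCND2 differed between the arms in opposite directions. CCND1, the cyclin D of many breast cancers, lies on chromosome 11 (69641087 to 69654474, plus strand). It was at 15887, 15538, 15385 and 15247 normalized counts in EV_A and at 17279, 16957, 17117 and 18435 in EV_B. In TTP_E11 the libraries gave 7517, 7672, 7496 and 7559, and in TTP_H3 8331, 8129, 9000 and 8064. Every TTP library was therefore below every EV library. The clone means were 15514 ± 275 and 17447 ± 672 in EV, and 7561 ± 78.5 and 8381 ± 428 in TTP (SD, n = 4 each), so that the mean of the TTP arm was 0.484 of that of the EV arm. As RNA of whole cultures was sequenced, fewer cells with a transcript and less of it per cell cannot be told apart.

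CCND2, on chromosome 12 (4273772 to 4305350, plus strand), is a close relative of CCND1 that is abundant in lymphoid and gonadal cells. It had 4.82, 5.57, 4.33 and 5.33 normalized counts in EV_A and 3.30, 3.18, 9.51 and 4.70 in EV_B. The TTP_E11 libraries gave 181.8, 213.8, 206.4 and 185.3, and those of TTP_H3 176.6, 198.2, 198.5 and 176.0. The levels of both EV clones were those of a few reads, and every TTP library was above every EV library. In reads, EV libraries held 3 to 10 each (42 in all) and TTP libraries at least 145 each (1537 in all). The ratio, scaled by the size factors, was 37.3. Its exact 95% interval of 27.5 to 52.0 covers counting error of the pooled reads only, not differences among libraries or clones. The EV clone means of 5.01 and 5.17 were below 9.68, the smallest mean of any listed gene over the 16 libraries. At EV levels alone CCND2 would lie below every listed gene, and it was chosen on this contrast, so the ratio is a description.

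On the log2(normalized count + 1) scale, the TTP minus EV difference was -1.05 (SE 0.0231) for CCND1 and 5.04 (SE 0.157) for CCND2. With a pseudocount of 5 the second value was 4.31, since EV levels of CCND2 are of that size. In the 4 pairings of 1 TTP clone with 1 EV clone, CCND1 ranged from -1.21 (E11 against B) to -0.89 (H3 against A), and CCND2 from 4.97 to 5.11. Among all genes, these differences stood at percentile 1.53 for CCND1 and percentile 99.9 for CCND2. The authors' deposited table gives log2 fold changes of -1.05 and 5.22.

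CCND3, the third D-type cyclin, lies on chromosome 6 (41934933 to 42050357, minus strand). Its libraries gave 4440, 4508, 4501 and 4379 normalized counts in EV_A, 4519, 4431, 4415 and 4447 in EV_B, 5810, 5634, 5684 and 5861 in TTP_E11, and 6178, 6230, 6066 and 6077 in TTP_H3. The EV clones coincided and all TTP libraries were above them, with an arm ratio of 1.33 (log2 difference 0.41, SE 0.0205). CCND3 thus lay on the side of CCND2, with a far smaller difference.

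**Figure D1:**
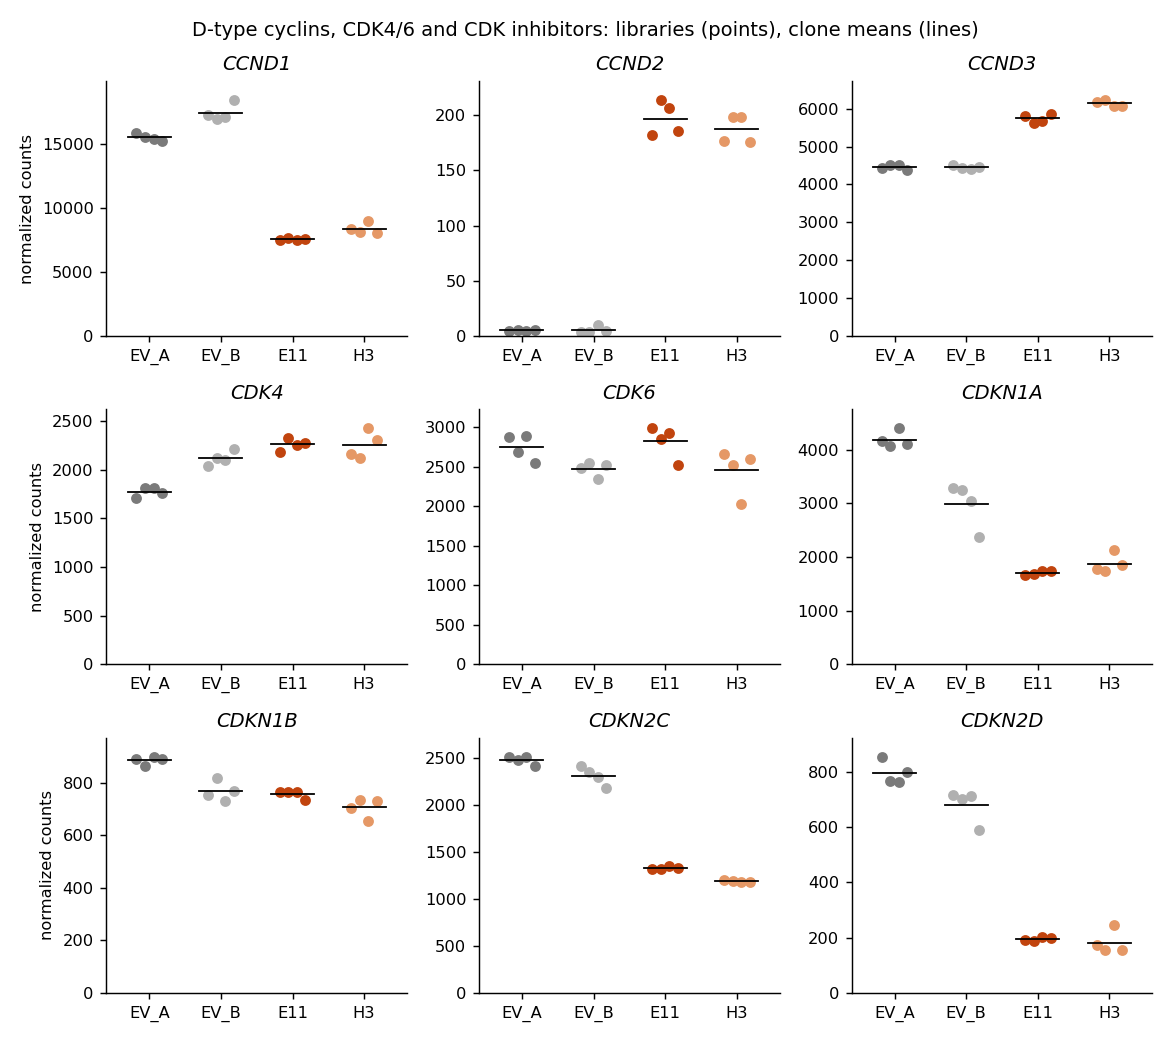
Normalized counts (linear axes from 0, a scale for each gene) of the 9 genes in each of the 16 libraries (points, replicates 1 to 4 from left to right), by clone, with the mean of each clone as a line. For CCND1, CCND2, CCND3, CDKN1A, CDKN2C and CDKN2D the TTP and EV libraries do not overlap, which also holds for 31.8% of all genes. CCND2 is at 9.51 or less in every EV library.

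The kinases differed less than the cyclins. CDK4 (chromosome 12, 57747727 to 57756013, minus strand) was at 1713, 1811, 1808 and 1764 normalized counts in EV_A and 2036, 2119, 2093 and 2210 in EV_B. In TTP_E11 it was at 2184, 2326, 2253 and 2275, and in TTP_H3 at 2161, 2116, 2422 and 2305. EV_A was below the other 3 clones, and EV_B overlapped with both TTP clones. The differences from EV_A were 0.35 (E11) and 0.34 (H3) on the log2 scale, and those from EV_B 0.10 and 0.09. On the opposite strand TSPAN31 overlaps 51.9% of the CDK4 transcript, and strand was not stated for the counting, so reads of the genes may be mixed. TSPAN31 itself had clone means between 315.5 and 333.9.

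CDK6, the alternative partner of D-type cyclins, lies on chromosome 7 (92604921 to 92836594, minus strand). It was at 2875, 2688, 2890 and 2549 normalized counts in EV_A, 2482, 2549, 2343 and 2527 in EV_B, 2984, 2846, 2929 and 2524 in TTP_E11, and 2662, 2525, 2034 and 2602 in TTP_H3. The arms overlapped throughout, and the differences over the 4 pairings of clones had both signs, from -0.17 to 0.19 on the log2 scale. The averaged log2 difference was 0.01 (SE 0.0547). CDK6 has the most pentamers and heptamers of the 9 genes in the longest 3′ UTR, at 2.54 pentamers per kb. A link of these motifs to its level was not tested.

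Of the 4 inhibitors, CDKN2D, CDKN2C and CDKN1A were lower in every TTP than in every EV library. The arms did not overlap, in either direction, for 31.8% of all genes, and the inhibitors were chosen on this contrast. CDKN2D, which encodes p19, lies on chromosome 19 (10566462 to 10569059, minus strand). It was at 855.1, 768.6, 763.8 and 800.6 normalized counts in EV_A, 717.4, 701.0, 711.6 and 591.5 in EV_B, 193.1, 188.3, 203.7 and 200.01 in TTP_E11, and 172.6, 156.9, 245.4 and 155.3 in TTP_H3. The highest TTP library, at 245.4, was below the lowest EV library, at 591.5, and the ratio of the arm means was 0.256. Its log2 difference of -1.96 (SE 0.0737) stood at percentile 0.168 of all genes, further from 0 than that of CCND1. Without replicate 4 of EV_B and replicate 3 of TTP_H3, the libraries nearest the other arm, it was -2.07.

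CDKN2C encodes p18 and lies on chromosome 1 (50960745 to 50974633, plus strand). The libraries gave 2514, 2481, 2509 and 2413 normalized counts in EV_A, 2413, 2355, 2304 and 2183 in EV_B, 1323, 1317, 1355 and 1334 in TTP_E11, and 1198, 1196, 1181 and 1184 in TTP_H3. Both TTP clones were well below both EV clones and varied little within a clone, with an SD of 16.5 in E11 and 8.40 in H3. The log2 difference was -0.93 (SE 0.0261). Its 3′ UTR, the shortest of the 9 with 363 bases, held 1 pentamer and no heptamer.

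CDKN1A encodes p21, a target of p53, and lies on chromosome 6 (36676460 to 36687339, plus strand). Its levels were 4168, 4076, 4396 and 4101 normalized counts in EV_A, 3292, 3255, 3038 and 2375 in EV_B, 1666, 1678, 1748 and 1732 in TTP_E11, and 1772, 1738, 2130 and 1849 in TTP_H3. All TTP libraries were below all EV libraries, but the gap was narrow between replicate 4 of EV_B and replicate 3 of H3. The log2 difference was -0.98 (SE 0.0639), and over the pairings of clones it ran from -0.67 (H3 against B) to -1.29 (E11 against A).

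CDKN1B, which encodes p27, lies on chromosome 12 (12715058 to 12722371, plus strand). It was at 892.5, 863.3, 899.7 and 891.1 normalized counts in EV_A, 753.8, 817.4, 729.7 and 771.1 in EV_B, 767.3, 764.1, 767.6 and 734.6 in TTP_E11, and 706.5, 736.6, 654.4 and 732.1 in TTP_H3. EV_A was above the other clones, while EV_B overlapped with both TTP clones. The differences from EV_B were -0.02 (E11) and -0.12 (H3) on the log2 scale, against -0.23 and -0.33 from EV_A.

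Concordance required an adjusted p under 0.05 (limma, adjusted over all 14857 genes) and 1 sign in each of the 4 pairings of a TTP with an EV clone. The genes were selected on this contrast, so how many of them meet the rule is fixed in part by that choice, and nothing is read from the counts. As a description, 6 of the 9 met it, against 38.5% of all genes. CCND2 and CCND3 were the 2 higher (19% of all genes) and CCND1, CDKN1A, CDKN2C and CDKN2D the 4 lower (19.5%). The TTP and EV libraries did not overlap for the same 6 genes, against 31.8% of all genes. The median log2 difference was -0.17 over the 9 genes and 0.00 over all genes. CDK4, CDK6 and CDKN1B did not meet the rule.

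**Figure D2:**
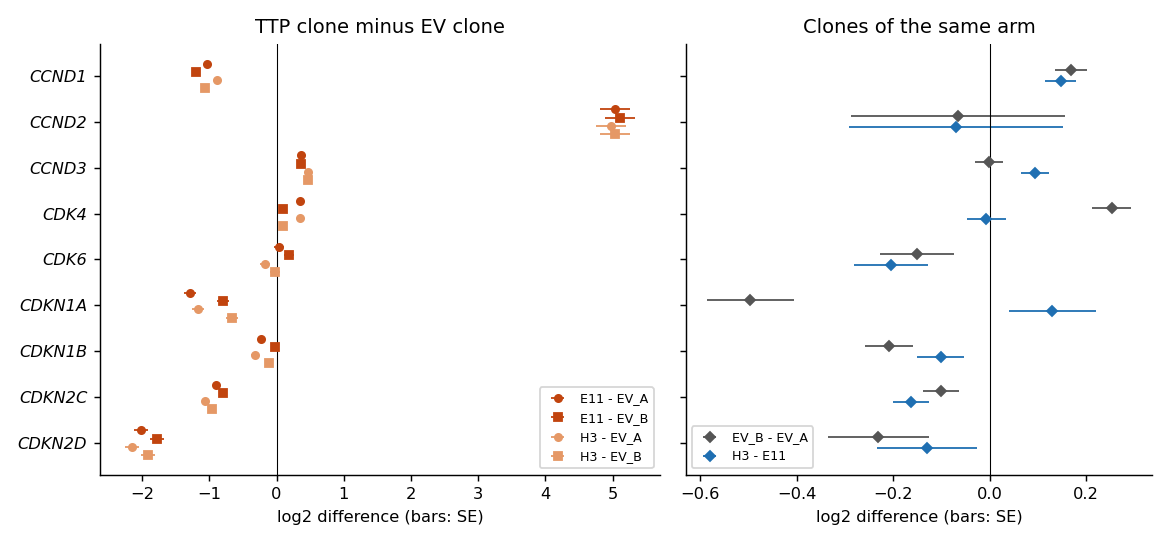
Differences on the log2(normalized count + 1) scale, with standard errors as bars, between each TTP and each EV clone (left) and between clones of the same arm (right), where the axis is narrower. The bars cover variation among replicates within a clone only. CCND2 lies near 5 and CCND1 near -1 in every pairing, whereas CDK4 and CDKN1B lie nearer 0 against EV_B than against EV_A. CDK6 lies above 0 for E11 and below 0 for H3 against either EV clone.

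Clones of the same arm offer a comparison that was not used to choose the genes. EV_B differed from EV_A in 5 of the 9 genes (limma, adjusted p under 0.05), against 36.8% of all genes. CCND1 was higher in EV_B by 0.17 on the log2 scale (SE 0.0327, adjusted p = 0.0001181) and CDK4 by 0.25 (SE 0.0408, adjusted p = 1.016e-05). CDKN1A fell by 0.50 from EV_A to EV_B (SE 0.0904, adjusted p = 0.0006988), or by 0.39 without replicate 4 of EV_B (adjusted p = 9.186e-07). CDKN1B was lower by 0.21 (log2 difference -0.21, SE 0.0495, adjusted p = 0.001169).

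For CDKN2C the EV_B minus EV_A difference was -0.10 (adjusted p = 0.03197). It did not pass without EV_A replicate 1, 2 or 3 (adjusted p = 0.07631, 0.06459 and 0.07334) or EV_B replicate 3 or 4 (adjusted p = 0.06203 and 0.1379). CDKN2D had -0.23 (adjusted p = 0.08958) and CDK6 -0.15 (adjusted p = 0.1473). Both passed without TTP_H3 replicate 3, which enters through the shared estimate of the spread (adjusted p = 0.005215 and 0.007012). CCND3 had a difference of -0.00 (SE 0.029, adjusted p = 0.9778), and CCND2 of -0.07 (SE 0.222, adjusted p = 0.8475) at its few reads per EV library.

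TTP_H3 differed from TTP_E11 in 3 of the 9 genes, against 11.7% of all genes. The ZFP36 level of H3 exceeded that of E11 by 0.45 (log2), and a link of that level to the differences below was not tested. CCND1 was higher in H3 by 0.15 (adjusted p = 0.002537), toward EV. CDKN2C differed by -0.16 (adjusted p = 0.003177) and CCND3 by 0.09 (adjusted p = 0.02896), both away from EV. The CCND3 call was lost without E11 replicate 2 or 3 (adjusted p = 0.1005 and 0.08598) or H3 replicate 1 or 2 (adjusted p = 0.06295 and 0.06777).

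CCND2 did not pass between the TTP clones, with a difference of -0.07 (SE 0.222, adjusted p = 0.8887), nor did CDKN1A with 0.13 (adjusted p = 0.4182), CDKN1B with -0.10 (adjusted p = 0.1945) or CDK4 with -0.01 (adjusted p = 0.9431). CDK6 was at -0.21 (adjusted p = 0.1075) and passed without E11 replicate 4 (-0.26, adjusted p = 0.04044). CDKN2D was at -0.13 (adjusted p = 0.4781) and passed without H3 replicate 3 (-0.28, adjusted p = 0.006052). For CDK6 and CDKN2D the call thus changed with 1 library, and for CDK6 also with DESeq2 on all libraries (adjusted p = 0.03121).

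To compare levels between genes, reads were expressed as CPM of the reads on listed genes, divided by the length in kb of 1 annotated transcript. On this scale CCND1 was at 189.7 (EV_A) and 208.5 (EV_B) against 96.6 (E11) and 107.1 (H3). CCND3 was at 112.6, 109.9, 151.7 and 162.0, and CCND2 at 0.04, 0.04, 1.67 and 1.59. In these units CCND2 was higher by a small amount beside the amount by which CCND1 was lower. The sum of the 3 cyclins was 302 ± 4.71 in EV_A and 319 ± 8.82 in EV_B, and 250.04 ± 2.20 in E11 and 271 ± 5.03 in H3.

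CCND1 was a smaller part of the D-type cyclin mRNA in TTP clones. CCND1 made up 62.7% of the sum for EV_A and 65.5% for EV_B, but 38.6% for E11 and 39.5% for H3, and CCND2 no more than 0.669% in any clone. With the length of all annotated exons, which is 5802 rather than 2085 bases for CCND3, the shares of CCND1 were 80.7%, 82.4%, 60.6% and 61.5%. CCND1 was lower relative to CCND3 in TTP clones with both lengths. Which of them was the more abundant there depended on the length, with CCND1 to CCND3 ratios of 0.637 and 0.661 by transcript and 1.58 and 1.64 by all exons.

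**Figure D3:**
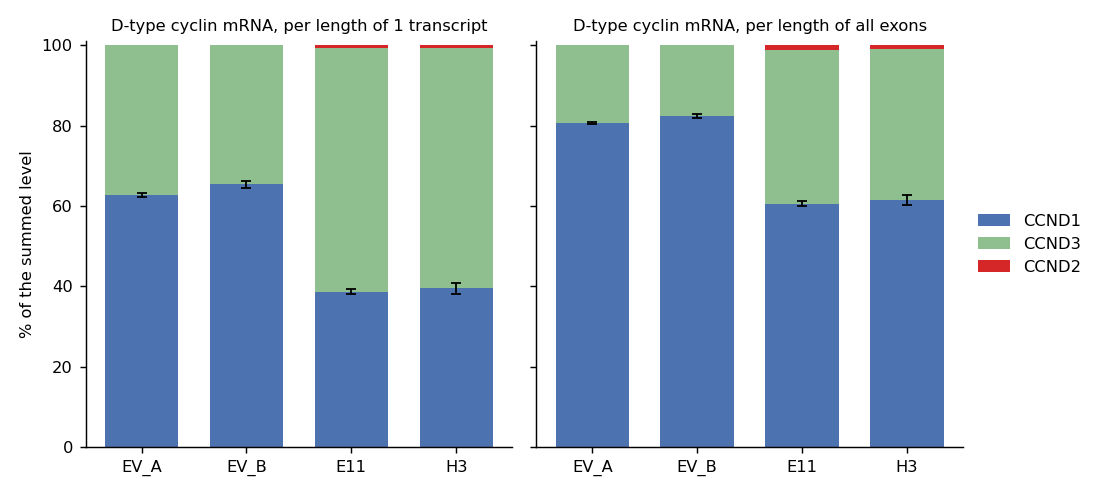
Share in percent of CCND1, CCND3 and CCND2 in their summed level per length, as clone means (n = 4 libraries), with the SD of the CCND1 share as a bar; the left panel uses 1 transcript per gene and the right all exons. The CCND1 share is smaller in both TTP clones by either length, and CCND2 stays a thin band at the top, at most 1.06%.

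The inhibitors were lower as a pool as well. On the same per-length scale by transcript, the 4 summed to 193 ± 4.2 (EV_A) and 151 ± 13.6 (EV_B) against 91.6 ± 1.51 (E11) and 91.5 ± 5.34 (H3). CDKN2D took 15.3% and 16.3% of that pool in EV clones and 8.29% and 7.67% in TTP clones, whereas the share of CDKN1B was 9.10% and 9.91%, then 17.1% and 16.1%. The ratio of the D-type cyclin sum to the inhibitor sum was 1.57 for EV_A, 2.13 for EV_B, 2.73 for E11 and 2.96 for H3. By all exons, it was 1.34, 1.84, 1.90 and 2.10, so that the mean of EV_B lay close to that of E11. The EV_B libraries ran from 1.69 to 2.18 (SD 0.230), those of E11 from 1.84 to 1.93 and those of H3 from 2.02 to 2.15. Replicate 4 of EV_B, with the least CDKN1A of its clone, gave the highest EV_B ratio and raises the EV_B mean. CDK4 was more abundant than CDK6 per length in all clones, by 3.62 times for EV_A, 4.78 for EV_B, 4.50 for E11 and 5.21 for H3.

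Other genes of the G1 pathway were taken from the same fit, in lists chosen with earlier results of these data known. Adjusted p-values are printed only for genes named because they met the concordance rule, so they are small by that choice. Of 41 genes in 3 lists, 39 were measured, and CDKN2A and CDKN2B were not analysed here. By the concordance rule 5 of the 39 rose (12.8%, against 19% of all genes), 13 fell (33.3%, against 19.5%) and 21 did neither. Among other G1 cyclins, CDKs and inhibitors, 1 of 10 rose (all genes 19%) and 5 fell (all genes 19.5%), with a median log2 difference of -0.32 against 0.00 over all genes. Whether these shares differ was not tested. CDKN1C, which encodes the third CIP/KIP inhibitor p57, had clone means of 269.2 ± 10.2 and 223.7 ± 36.6 normalized counts in the EV arm against 135.9 ± 7.46 (E11) and 142.0 ± 33.3 (H3) and fell (log2 difference -0.83, SE 0.092, largest adjusted p of the 4 contrasts 8.509e-05). CCNH (-0.49) and MNAT1 (-0.47), which with CDK7 (-0.30) form the CDK-activating kinase, fell too. CDC37, the HSP90 cochaperone that stabilizes CDK4, rose by 0.40. The cyclin E gene CCNE2 fell (-0.42), whereas neither CCNE1 (0.33) nor CDK2 (0.06) was concordant.

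Downstream of the kinases, 1 of 13 pocket proteins and E2F factors rose (all genes 19%) and 6 fell (all genes 19.5%), with a median of -0.12. TFDP2, a dimer partner of E2F proteins, rose from clone means of 726.1 and 716.4 to 1234 and 1074 (log2 difference 0.67, largest adjusted p 1.46e-11). E2F1, an activator of S phase genes, fell from 2324 and 2710 to 1590 and 1678 (-0.62, largest adjusted p 1.649e-12). E2F8 fell by 0.67, TFDP1 by 0.44 and E2F7 by 0.35 on the log2 scale. The remaining E2F genes, E2F2 to E2F6, had positive differences (0.14 to 0.24) and were not concordant. RB1, the retinoblastoma gene, and its relative RBL1 both fell by 0.42. The third pocket protein, RBL2, was not concordant (-0.12).

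Of 16 parts of ubiquitin ligases that act on D-type cyclins or CDK inhibitors, 3 rose and 2 fell (median 0.07), shares near or below the 19% and 19.5% of all genes, and nothing is read from these counts. AMBRA1, the substrate receptor through which CUL4-DDB1 degrades D-type cyclins, rose from 657.9 and 661.8 to 871.2 and 990.8 (log2 difference 0.50, largest adjusted p 4.065e-07). FBXO31, an F-box protein that targets cyclin D1, rose by 0.39, and BTRC by 0.37. CUL4B fell by 0.46 (largest adjusted p 4.707e-09) and CKS1B, the cofactor of SKP2 in p27 turnover, by 0.28 (largest adjusted p 0.006395). SKP2 itself was not concordant (-0.06). Protein turnover was not measured.

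**Figure D4:**
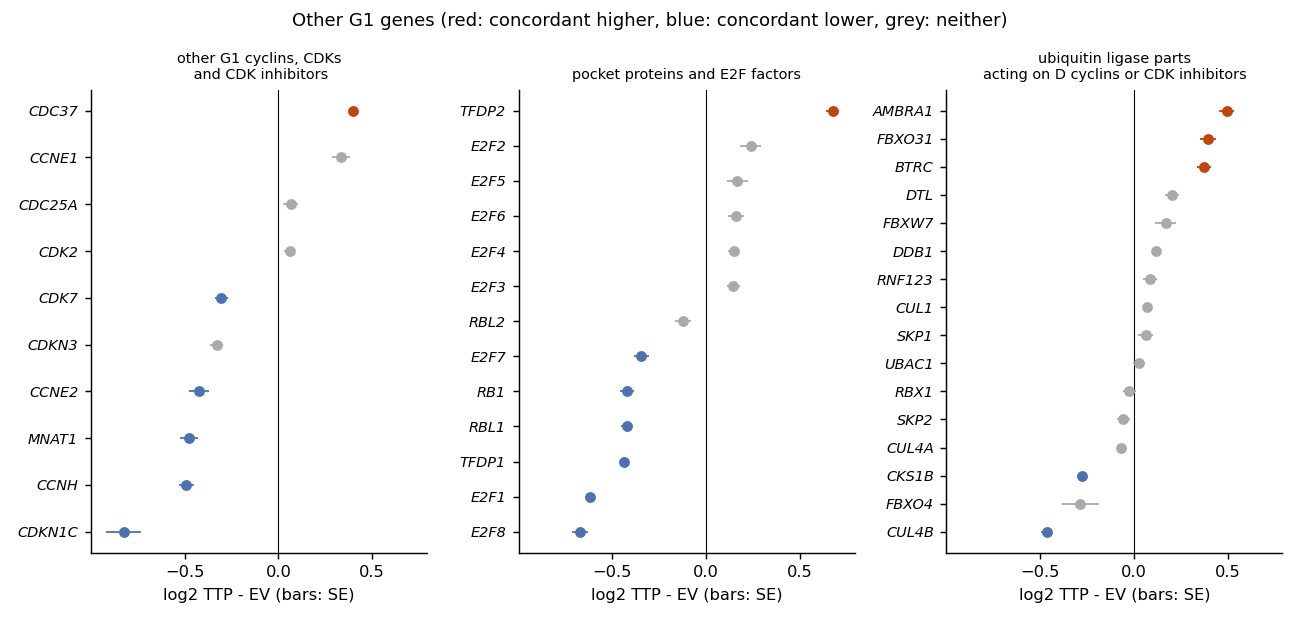
TTP minus EV differences of the 39 other measured G1 genes on the log2(normalized count + 1) scale, with standard errors as bars, in 3 lists. The bars cover variation among replicates within a clone only. Of the 39 genes, 5 are concordant higher (red), 13 concordant lower (blue) and 21 neither (grey), and CDKN1C is the lowest at -0.83 and TFDP2 the highest at 0.67.

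The listed neighbours of CCND1 and CCND2 were not concordant. ORAOV1, also called LTO1, starts 34.3 kb from CCND1 and is the listed gene within 250 kb of it. Its clone means were 641.3 and 594.4 normalized counts in EV and 550.3 and 582.2 in TTP, and its log2 difference of -0.12 was not concordant. It overlaps 11.5% of the CCND1 transcript on the opposite strand. TIGAR, a fructose bisphosphatase gene that starts 34.0 kb from CCND2, was at 157.6 and 206.4 in EV and 174.9 and 206.2 in TTP clones (0.07, not concordant).

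Likeness of pattern was measured as the root mean square difference of log2 values, centred on each gene's mean, over the 16 libraries. Nearest to CCND1 were RHEB (0.0726), HMMR (0.0726), DEPDC1 (0.0766) and TMEM30A (0.0806). RHEB, the GTPase that activates mTORC1, had clone means of 5611 and 6017 normalized counts in EV and 2868 and 2870 in TTP, and HMMR encodes a hyaluronan receptor. Nearest to CCND2 were NKX2-1 (0.333), ZFP36 itself (0.480), TLL1 (0.572) and CCDC184 (0.580), all at larger distances than those of the genes nearest CCND1. NKX2-1, a homeobox factor, was at 0 and 0.238 in EV and at 40.7 and 41.5 in TTP clones. TLL1 was at 0.222 and 0.708 in EV and at 28.7 and 23.9 in TTP clones. CCDC184 was at 0.302 and 0 in EV and at 23.8 and 23.0 in TTP clones. The EV means of NKX2-1, TLL1 and CCDC184 were below 9.68, the smallest mean of any listed gene over the 16 libraries. Nothing is therefore read from their nearness to CCND2 or from the larger distances. The lists are descriptions.

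Across all genes with a 3′ UTR, those with the heptamer TATTTAT had a median log2 difference of -0.11 and those without it of 0.06. Concordant lower genes made up 33.3% of the first and 16.3% of the second. For the pentamer ATTTA, present in 69.8% of genes, these shares were 26.9% with it and 10.2% without it. For the nonamer they were 34.8% and 20.7%. The length of the 3′ UTR was not accounted for, and a cause of these differences was not tested. Of the 5 genes with a heptamer, which were chosen on this contrast, CDKN2D and CCND1 were lower, CDK6 and CDKN1B not called, and CCND2 higher. Of the 4 genes without it, CDKN1A and CDKN2C were lower, CCND3 higher and CDK4 not called.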

How the data were processed

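RNA of 16 samples was sequenced from NEBNext Ultra II libraries per the labels' protocols. Tools named in the submitters' processing notes are STAR 2.5.2b, Trimmomatic 0.36, Subread 1.5.2 with featureCounts, and DESeq2, with the build GRCh38. The annotation, filter and strand setting are not given in the sources used here. Values deposited by the authors are a signal of reads divided by a size factor (normalized counts), with log2 fold changes and p-values. All values were whole multiples, within 0.001, of the worth of 1 read, a weaker check for replicates 1 and 3 of TTP_H3, where that worth is near 1. Reads were recovered by division. The smallest mean of a listed gene was 9.68, so genes below the authors' filter were not analysed here.

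The main test was limma 3.58.1 (R 4.3.3, robust trend) on log2(value + 1), in 1 fit of 16 libraries and 4 clones, with Benjamini-Hochberg adjustment over 14857 genes. It was tested on simulated data in which clones of the same arm did not differ, so that test does not cover differences between clones. EdgeR 4.0.16 and DESeq2 1.42.0 on recovered reads, pseudocounts of 0.1 and 5, a minimum mean of 50, TMM scaling, a replicate block, a plain fit and leaving out each library were alternatives. Positions, lengths and 3′ UTRs are from GENCODE 29, which held 14820 of the listed genes. The genes and gene lists were chosen with earlier results of these data known. Named were all 9 genes, ZFP36, and up to 3 concordant genes per direction and list with the largest mean change. The 4 nearest genes in pattern and listed genes starting within 250 kb were named too. CCNE1, CCNE2, CDK2, CDK7, RB1, RBL1, RBL2, E2F2 to E2F7, SKP2 and TSPAN31 were added after their values were seen.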

Additional observations from a re-analysis of the deposited data

Results flagged for a closer look

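In each group of 4 libraries, the lowest or highest value was compared with the others by Dixon's ratio and its 95% critical value. Of 36 groups looked at, 2 stood out, and chance flags about 1 in 20 groups. CDKN1B in TTP_E11 was at 734.6 normalized counts in replicate 4, against 764.1 to 767.6 in the others (ratio 0.894). CDKN2D in EV_B was at 591.5 in replicate 4, against 701.0 to 717.4 (ratio 0.869).

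The TTP clones differed in their distance from the same EV clones for 3 genes, by limma's test of H3 against E11. CCND1 was at -1.12 in E11 and -0.97 in H3 on the log2 scale, a difference of 0.15 (adjusted p = 0.002537). CCND3 was at 0.37 and 0.46, a difference of 0.0949 (adjusted p = 0.02896), and CDKN2C at -0.85 and -1.01, a difference of -0.16 (adjusted p = 0.003177).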

How the results depend on the processing

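Over 25 alternatives, 16 of which left out 1 library each, the same 6 of the 9 genes stayed concordant in 25. CDK4 joined them in 5 (edgeR, TMM scaling, and without EV_B replicate 4, TTP_H3 replicate 1 or TTP_H3 replicate 2). The genes were chosen on this contrast, so nothing is read from how often they met the rule. Among all 14857 genes, 5713 met it in the main fit, 5692 with a pseudocount of 0.1 and 5726 with a pseudocount of 5. No gene that was concordant, or called between clones, reversed its direction, whereas differences near 0 changed sign in some settings (CDK6 between the arms, CCND2 and CCND3 between EV clones and CDK4 between TTP clones). The genes called between EV clones numbered 4 to 7 (main 5, against 36.8% of all genes in the main fit). Between TTP clones they numbered 2 to 4 (main 3, against 11.7% of all genes). The other G1 genes that rose numbered 5 to 7 and those that fell 12 to 13 (19% and 19.5% of all genes in the main fit). EdgeR and DESeq2 also called CDKN2D between EV clones (adjusted p = 0.02457 and 0.02678), and DESeq2 CDK6 between TTP clones (adjusted p = 0.03121). Leaving out EV_B replicate 4 and TTP_H3 replicate 3 together was chosen after seeing the data. Depth limits CCND2 in EV clones, at 3 to 10 reads per library.

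Replicate numbers do not pair the samples: deviations of same-numbered libraries correlated between -0.0883 and 0.0962 over 24 pairs, and 3 of 16 libraries correlated best with their own number. With the replicate number as a block, 6 of the 9 genes were concordant, 5 were called between EV clones and 3 between TTP clones, as without it.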

Other observations

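Fibroblast markers summed to 342 to 635 in EV and 401 to 663 in TTP libraries, with DCN not among the listed genes.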
